A study of Mus musculus with 8 samples.

Results

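Mitochondrial ribosomal protein genes were taken as the rows of the deposited expression table whose symbol begins with Mrpl or Mrps followed by a number. The rule found 78 of 18561 genes. By their known place in the mammalian mitochondrial ribosome, 51 encode proteins of the large subunit and 26 proteins of the small subunit. The remaining gene, Mrps36, keeps its name although its protein is known as a part of the oxoglutarate dehydrogenase complex of the citric acid cycle.

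The libraries came from enteric neural crest cells, which give rise to the intrinsic nervous system of the gut, sorted with antibodies against CD271 and CD57 from the gut of mouse embryos of embryonic day 14.5. There were 5 libraries labelled Emb knockdown and 3 labelled WT, each from a tube of about 200 cells amplified with Smart-seq2, a method that copies full-length cDNA. The labels gave no strain, no allele or agent behind the knockdown, and no litter, sex or animal for a library. The p-values therefore reflect how these libraries vary, and part of that variation may be technical.

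The mitochondrial ribosome translates the few messenger RNAs of the mitochondrial genome, all of which encode core proteins of the respiratory chain and of ATP synthase. Its proteins are encoded in the nucleus, made in the cytosol and imported, and assemble on ribosomal RNAs made inside the organelle. Part of them descend from bacterial ribosomal proteins and part were added during the evolution of mitochondria. Promoters of such housekeeping genes often carry sites for ETS family factors, NRF1 and YY1.

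Library totals ranged from 20116607 to 26959265 counts, and 0.0966 to 0.155 CPM (counts scaled to the TMM-adjusted library size) was the level of 3 counts. The TMM factors were 0.758 and 0.794 in the libraries labelled knockdown 1 and 2. They were 1.03 to 1.08 in those labelled knockdown 3 to 5 and 1.08 to 1.15 in WT. A smaller factor gives a higher CPM for the same share of counts. Overlap of groups is stated for CPM below unless TPM is named. The targeted gene, Emb, had 353, 349, 37.2, 21.4 and 21.7 CPM with the knockdown label (libraries 1 to 5) and 16.9, 17.7 and 15.9 CPM in WT 1 to 3. It was thus not lower in any library labelled knockdown, and directions below are differences between labels. A list of 20 leukocyte genes took 2.77% and 2.43% of counts in the libraries labelled knockdown 1 and 2, 0.190% to 0.319% in those labelled knockdown 3 to 5 and 0.0608% to 0.0942% in WT. A list of 15 enteric neural crest genes took 0.0316% and 0.0288%, 0.129% to 0.162% and 0.366% to 0.372% of counts in the same order, and Sox10, Foxd3, Tfap2b, Tlx2 and B3gat1 were at 0 in the library labelled knockdown 2. The members' comparison was therefore made with all 8 libraries and with the 6 that leave out the libraries labelled knockdown 1 and 2. In such sorted pools, a different mix of cells and a different RNA content per cell cannot be told apart.

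Promoter sequence was available from RefSeq (GRCm38.p6) for 69 of the 78 genes, as windows from 250 bases before to 50 bases after the annotated start. The letters CCGGAAG, a core of ETS sites, were found on either strand in windows of 26 of the 69 genes (37.7%), against 12.9% of 17492 coding genes. The YY1 letters AAGATGGC were found in 12 genes (17.4%), against 3.57% of coding genes. The NRF1 letters GCATGCGC were found in 8 genes (11.6%), against 3.94% of coding genes. At least 1 of the 3 motifs was in 38 of the 69 genes (55.1%) and in 18.7% of coding genes. These coding genes include some not expressed here, while all members were. Among coding genes tested with 8 libraries below, 3028 had at least 1 motif and 9121 had none. An ETS match was in 2132 of these and absent from 10017, so the shares were higher than over all coding genes. Counted by window, it was in 50.7% of the 75 windows of members and 13.3% of all 32851. A match is a run of letters and not a measured binding site.

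The 100 bases before the start are shown for 5 genes that passed the test with 6 libraries below, 4 of them with a match in the stretch and Mrps14 with none, with motif letters in capitals. The genes that passed but are not shown, Mrpl24, Mrps18c, Mrps21, Mrps33 and Mrps36, had no match in this stretch either. Elsewhere in the window, Mrps18c, Mrps21 and Mrps33 had an ETS match. The regions are chr5:31613851-31613950 for Mrpl33, chr6:125192100-125192199 for Mrpl51, chr14:54426809-54426908 for Mrpl52, chr13:99344686-99344785 for Mrps27 and chr1:160195115-160195214 for Mrps14, all on the plus strand. For Mrps27 the window uses another start than the gene coordinates given below (from 99344767), so the stretch ends inside the gene. The stretch of Mrpl24 (87919444 to 87919543) lies wholly inside its gene coordinates (from 87918131).
Mrpl33: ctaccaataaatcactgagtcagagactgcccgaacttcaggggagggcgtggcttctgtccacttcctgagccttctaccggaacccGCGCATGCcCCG
Mrpl51: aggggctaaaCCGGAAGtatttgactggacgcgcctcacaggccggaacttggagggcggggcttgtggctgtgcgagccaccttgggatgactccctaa
Mrpl52: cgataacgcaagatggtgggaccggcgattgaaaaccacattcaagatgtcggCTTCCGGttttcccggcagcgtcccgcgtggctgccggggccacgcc
Mrps27: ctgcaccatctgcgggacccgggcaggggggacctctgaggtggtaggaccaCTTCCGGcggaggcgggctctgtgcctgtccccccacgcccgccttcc
Mrps14: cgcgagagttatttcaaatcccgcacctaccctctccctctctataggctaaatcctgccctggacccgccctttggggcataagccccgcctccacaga
In Mrpl33 the first capitals are the NRF1 letters read on the other strand, and the last 3 begin an ETS match that runs past the start. In Mrpl52 and Mrps27 the capitals are the ETS letters read on the other strand, and in Mrpl51 they are read on the strand shown. Members with and without an ETS match had median log2 fold changes of 0.25 (26 genes) and 0.09 (43 genes) with 6 libraries, against -0.10 and 0.05 for coding genes with and without one. With 8 libraries the medians were 0.41 and 0.19 for members, against 0.10 and 0.07 for coding genes. The order in coding genes thus depended on the libraries, and these differences were not tested.

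The family was expressed in every library, and all 78 genes passed the filter on low counts. Together they took 0.859%, 0.915%, 0.936%, 0.948% and 0.888% of all TPM (a share of transcripts that takes gene length into account) in the libraries labelled knockdown 1 to 5. In WT 1 to 3 they took 0.934%, 0.964% and 0.950%. The groups overlapped, with means of 0.909% ± 0.0361 (SD, n = 5) and 0.950% ± 0.0151 (SD, n = 3). On this scale the library labelled knockdown 1 was the lowest and WT 2 the highest. The order differed in CPM, the scale of the fold changes below. There the members' median log2 CPM, relative to each gene's mean over 8 libraries, was 0.37, 0.38, 0.06, 0.05 and -0.30 in the libraries labelled knockdown 1 to 5. It was -0.09, -0.26 and -0.19 in WT, so the library labelled knockdown 5 was below every WT library.

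Related families were less even on the same scale. The 83 cytosolic ribosomal protein genes, which build the ribosome outside mitochondria, took 18.6% to 20.7% of TPM in the libraries labelled knockdown 1 and 2, 27.4% to 29.3% in those labelled knockdown 3 to 5 and 16.1% to 21.3% in WT. The 85 nuclear genes of the respiratory chain, whose products assemble with the proteins made by the mitochondrial ribosome, took 4.36% to 4.54%, 5.75% to 7.35% and 4.27% to 4.99%. In both families the libraries labelled knockdown 3 to 5 lay above every WT library.

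**Figure D1:**
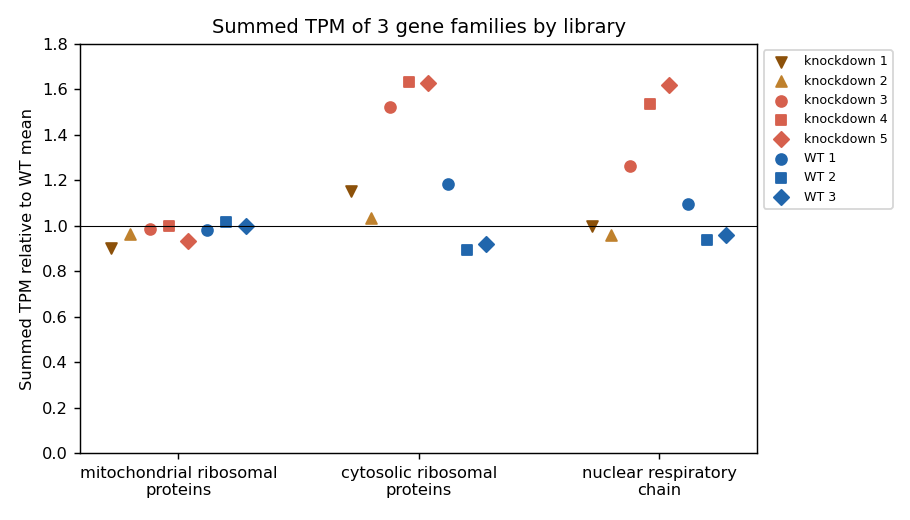
Summed TPM of 3 gene families in each of the 8 libraries, divided by the mean of the 3 WT libraries (linear axis from 0, each point 1 library). The mitochondrial ribosomal protein genes lie close to 1 in every library, while both other families are higher in the libraries labelled knockdown 3 to 5.

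Within the family, TPM spanned well over an order of magnitude. The highest mean over 8 libraries belonged to Mrpl33, followed by Mrpl42, Mrps21, Mrpl52 and Mrpl23. Mrpl33, a small protein of the large subunit with a bacterial counterpart, was at 640 ± 84.2 TPM (SD, n = 5) in the libraries labelled knockdown and 328 ± 36.9 TPM (SD, n = 3) in WT. Mrpl42, a large subunit protein without a bacterial counterpart, was at 398 ± 67.6 and 440 ± 11.5 TPM. In WT Mrpl42 was thus above Mrpl33, while in the libraries labelled knockdown the order was the other way round.

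Mrps21, of the small subunit, was at 458 ± 167 TPM (SD, n = 5) in the libraries labelled knockdown and 299 ± 19.0 TPM (SD, n = 3) in WT. Mrpl52 was at 408 ± 172 and 282 ± 74.0 TPM, and Mrpl23 at 368 ± 39.1 and 321 ± 29.7 TPM. In WT these 3 and Mrpl33 did not differ beyond their spread. At the low end, Mrps25 was at 13.5 ± 2.47 and 14.0 ± 0.447 TPM, Mrpl1 at 14.5 ± 4.24 and 12.6 ± 2.33 TPM, and Mrpl19 at 12.8 ± 1.37 and 16.3 ± 2.87 TPM, which also lie within each other's spread. Mrps31 (18.5 ± 6.57 and 27.6 ± 3.38 TPM) and Mrpl35 (23.0 ± 3.42 and 20.9 ± 0.252 TPM) were next.

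**Figure D2:**
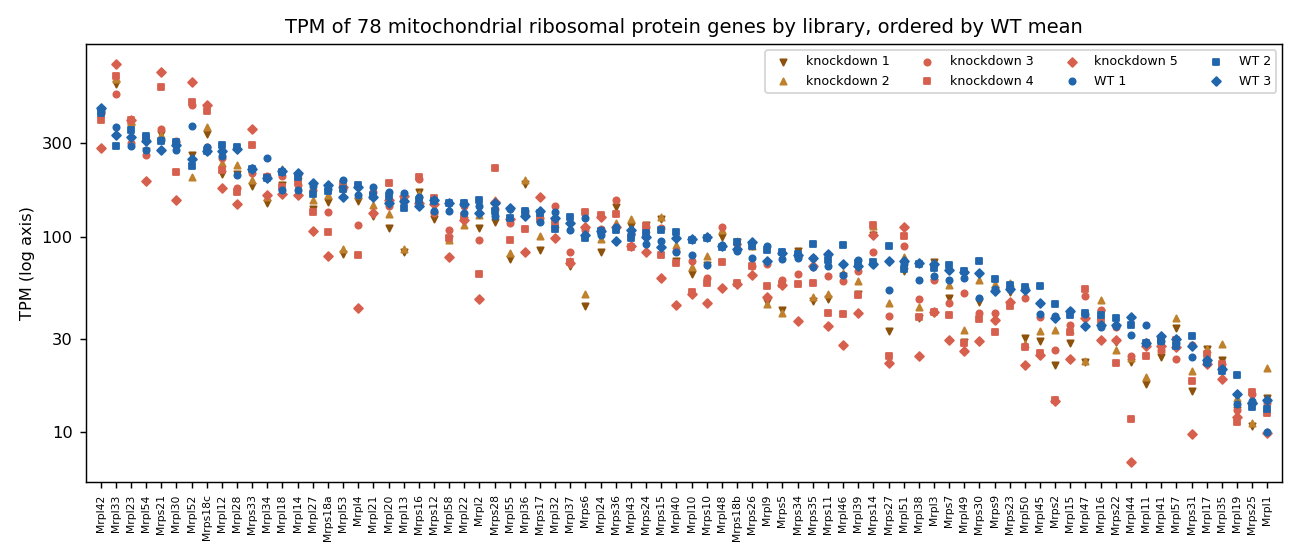
TPM (log axis) of each of the 78 genes in each of the 8 libraries, ordered by the WT mean. Blue WT points lie close together for most genes, and the libraries labelled knockdown spread on both sides, with Mrpl33 above and Mrpl44 below all WT points.

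The order of the 78 genes by TPM was largely shared. Spearman's rho across genes, which are not independent replicates, was 0.979 to 0.989 between WT libraries and 0.897 to 0.977 over the other 12 pairs of the 6 libraries. It was 0.878 to 0.943 between either of the libraries labelled knockdown 1 and 2 and the other 6, and 0.992 between these 2. The large subunit genes had a mean of 121 ± 6.74 TPM (SD, n = 5) in the libraries labelled knockdown and 131 ± 1.31 TPM (SD, n = 3) in WT. Each library labelled knockdown was below each WT library, at 112 to 129 against 130 to 132 TPM. The small subunit genes had 107 ± 10.6 and 103 ± 3.42 TPM, with groups that overlapped.

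The steadiest genes over 8 libraries, by the SD of log2 CPM, were Mrps35 (0.12), Mrps5 (0.13), Mrpl55 (0.13), Mrps17 (0.15) and Mrpl37 (0.15). Mrps35, a small subunit protein, was at 42.8, 40.9, 51.2, 42.3 and 45.9 CPM with the knockdown label (libraries 1 to 5) and 40.4, 44.6 and 40.0 CPM in WT. The groups overlapped throughout. The most variable were Mrpl33 (0.85), Mrpl44 (0.77), Mrpl4 (0.74), Mrpl52 (0.73) and Mrps21 (0.68). Mrpl4, of the large subunit, was at 176, 173, 96.3, 75.2 and 35.5 CPM with the knockdown label (libraries 1 to 5) and at 119, 113 and 118 CPM in WT, so libraries with 1 label lay on both sides of WT.

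The comparison the labels imply is knockdown against WT. With all 8 libraries, none of the 78 genes passed an adjusted p of 0.05 in edgeR's quasi-likelihood test, higher (0% of 15411 genes tested) or lower (0%). At an unadjusted p under 0.05, 19 members were higher, where 12.7% of all genes were, and 0 were lower, where 5.9% were. In 20 members every library labelled knockdown was above every WT library, where 10.8% of genes were, and in 0 every one was below, where 11.9% were. The median log2 fold change was 0.26 over the members and 0.07 over all genes tested. Of the 78 members 61 had a positive value, and of all 15411 genes 8238 did. The members' median log2 CPM per library, given above, had an SD of 0.28 (n = 5) with the knockdown label and 0.086 (n = 3) in WT.

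Other tests of the same 8 libraries did make calls. DESeq2's Wald test called 15 members higher (10.5% of all genes) and 0 lower (3.91%). Limma voom with quality weights called 19 higher (12.6%) and 4 lower (11.6%). With the length offset described below, edgeR called 0 members higher (0%) and 0 lower (0%). Of the 15 members called by DESeq2, Mrpl33, Mrpl51, Mrps14, Mrpl24, Mrps18c, Mrps21, Mrps36 and Mrps33 also passed with 6 libraries in edgeR.

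With 6 libraries, 9 members were higher in edgeR's quasi-likelihood test (11.1% of 15115 genes tested) and 1 was lower (9.37%). The share of members that rose was close to that of all genes. The large subunit held 4 of the higher genes and the small subunit 4, with Mrps36 the ninth, and the gene that fell was of the small subunit. The median log2 fold change was 0.14 over the members and 0.02 over all genes. The members' median log2 CPM per library had an SD of 0.21 in the libraries labelled knockdown 3 to 5. Groups did not overlap in 24 members above (20.5% of all genes) and 11 below (22.8%). DESeq2 called 13 higher (16.2%) and 2 lower (13.9%), and voom 24 higher (23.3%) and 8 lower (22.2%). Among the same 6 libraries, 16 of 20 leukocyte genes and 4 of 10 mesenchyme genes were higher, while 9 of 15 enteric neural crest, 6 of 15 enteric neuron and 9 of 10 endothelial genes were lower and 0 of 9 epithelial genes passed. The part of this difference in cell type markers in the members' values was not tested.

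The number of calls changed with the libraries fitted, for members as for all genes. Without the library labelled knockdown 3, 13 members were higher and 11 lower (19.2% and 19.6% of all genes). Without knockdown 4 the counts were 0 and 0 (0.673% and 0.492%), and without knockdown 5 they were 9 and 0 (5.83% and 4.91%). They were 4 and 0 without WT 1 (5.33% and 3.61%), 1 and 0 without WT 2 (1.45% and 1.25%), and 0 and 0 without WT 3 (1.07% and 0.828%). All 10 called genes kept their direction in these 6 fits. Their groups did not overlap in the 6 libraries, so leaving out 1 could hardly turn it, and this is no check of the calls. The exact permutation test of single genes cannot go below p = 0.10 with 3 against 3 libraries, and it gave 0.10 for each of the 10 genes called.

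**Figure D3:**
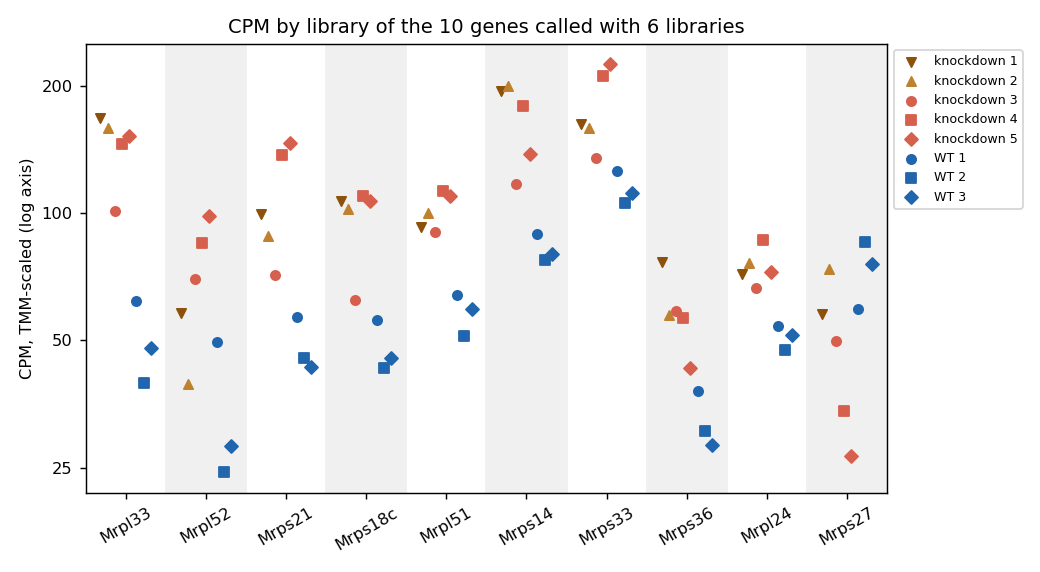
CPM (log axis, TMM scaling of 8 libraries) of the 10 genes that passed with 6 libraries, each point 1 library, ordered by fold change. On this scale, for 8 of the 9 higher genes every library labelled knockdown is above every WT library. For Mrpl52 the library labelled knockdown 2 lies within the WT range. By TPM, Mrpl24 in the libraries labelled knockdown 1 and 2 is below WT.

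In the large subunit, Mrpl33 (gene 66845, chromosome 5, 31613951 to 31622644) showed the highest fold change of the family. It was at 168, 159, 101, 145 and 152 CPM with the knockdown label (libraries 1 to 5) and at 62.1, 39.6 and 47.9 CPM in WT 1 to 3. All libraries labelled knockdown were above all WT libraries, the library labelled knockdown 3 being the nearest. The log2 fold change was 1.42 ± 0.23 (SE) with 6 libraries (edgeR adjusted p = 0.0105) and 1.54 ± 0.25 with 8 (adjusted p = 0.137, exact permutation p = 0.0179, the smallest that 56 splits can give). With 6 libraries the adjusted p was 0.0611 without the library labelled knockdown 4 and 0.0572 without WT 3.

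Mrpl52, a large subunit protein without a bacterial counterpart (chromosome 14, 54426909 to 54429750), was at 58.2, 39.5, 69.9, 85.2 and 98.2 CPM in libraries with the knockdown label and at 49.5, 24.4 and 28.1 CPM in WT. The libraries labelled knockdown 3 to 5 were above WT, while that labelled knockdown 2 was below WT 1. Its log2 fold change was 1.32 ± 0.28 with 6 libraries (edgeR adjusted p = 0.0187) and 1.05 ± 0.37 with 8 (adjusted p = 0.203). Its adjusted p was at most 0.0852 when 1 library was left out.

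Mrpl51, which also lacks a bacterial counterpart (chromosome 6, 125192200 to 125194392), was at 92.8, 100.3, 90.3, 113 and 109 CPM in libraries with the knockdown label and 64.1, 51.3 and 59.2 CPM in WT. The groups did not overlap, and the 5 libraries labelled knockdown lay close together. Its log2 fold change was 0.84 ± 0.17 with 6 libraries (edgeR adjusted p = 0.0168) and 0.80 ± 0.18 with 8 (adjusted p = 0.137).

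Mrpl24, a large subunit protein with a bacterial counterpart, was at 71.7, 76.0, 66.6, 86.4 and 72.7 CPM in libraries with the knockdown label and 54.2, 47.4 and 51.4 CPM in WT. The groups did not overlap in CPM. By TPM the libraries labelled knockdown 1 and 2 (83.3 and 96.6) were below WT (102 to 107), and those labelled knockdown 3 to 5 (109 to 129) above. Its log2 fold change of 0.56 ± 0.17 with 6 libraries was the nearest to the threshold (edgeR adjusted p = 0.0492), and with 8 it was 0.55 ± 0.17 (adjusted p = 0.17). Exons of Rrnad1 overlap those of Mrpl24 on the other strand, and the reads of the 2 cannot be told apart in libraries that do not mark strand.

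Mrpl23 just missed the threshold with 6 libraries (0.58 ± 0.18, adjusted p = 0.0539). It was at 179, 172, 105, 155 and 139 CPM in libraries with the knockdown label and 90.3, 89.1 and 87.3 CPM in WT. The groups did not overlap in CPM, while by TPM the library labelled knockdown 3 (302) lay within the WT range (290 to 349). With 8 libraries its log2 fold change was 0.75 ± 0.22 (edgeR adjusted p = 0.158). Mrpl12, a protein of the ribosomal stalk, was at 173, 179, 150, 145 and 103 CPM and 134, 129 and 127 CPM, with overlap.

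In edgeR without a length term, 0 large subunit genes passed as lower with 6 libraries (9.37% of all genes did). Voom called 6 of the 51 lower (11.8%, against 22.2% of all genes). Below every WT library lay 7 of the 51, where 22.8% of all genes did. Among those with the smallest p for a lower level with 8 libraries, Mrpl44, an RNase III-like protein of the large subunit, was at 29.6, 28.3, 22.9, 12.2 and 6.45 CPM in libraries with the knockdown label and 25.6, 24.7 and 28.6 CPM in WT. The libraries labelled knockdown 4 and 5 were well below WT, and those labelled 1 and 2 were not. The log2 fold change was -0.40 ± 0.48 with 8 libraries (edgeR adjusted p = 0.712) and -0.92 ± 0.40 with 6 (adjusted p = 0.129), where the groups did not overlap.

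With 8 and with 6 libraries, Mrpl38 had log2 fold changes of -0.29 ± 0.28 and -0.51 ± 0.26, and Mrpl37 of -0.12 ± 0.17 and -0.24 ± 0.15, both below WT without overlap in the 6. Mrpl49 had -0.44 ± 0.25 and -0.51 ± 0.26, and Mrpl50 -0.30 ± 0.27 and -0.38 ± 0.28, with overlap. None of these passed the threshold in edgeR.

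In the small subunit, Mrps21 (chromosome 3, 95862634 to 95871514), which has a bacterial counterpart, was at 99.3, 88.2, 71.4, 137 and 147 CPM in libraries with the knockdown label and 56.7, 45.3 and 43.1 CPM in WT. The groups did not overlap, with those labelled knockdown 4 and 5 highest. Mrps21 had a log2 fold change of 1.29 ± 0.28 with 6 libraries (edgeR adjusted p = 0.0184) and 1.16 ± 0.29 with 8 (adjusted p = 0.141).

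Mrps14 (chromosome 1, 160195215 to 160201186), of the head of the small subunit, was at 195, 200.1, 117, 179 and 138 CPM in libraries with the knockdown label and 89.1, 77.2 and 79.9 CPM in WT. Every library labelled knockdown was above WT. For Mrps14 the log2 fold change was 0.82 ± 0.19 with 6 libraries (edgeR adjusted p = 0.0242) and 1.01 ± 0.23 with 8 (adjusted p = 0.137).

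Mrps33, a small subunit protein without a bacterial counterpart, was at 163, 159, 135, 211 and 225 CPM in libraries with the knockdown label and 126, 106 and 112 CPM in WT. The library labelled knockdown 3 was close to WT 1, without overlap. The log2 fold change with 6 libraries was 0.74 ± 0.22 (edgeR adjusted p = 0.0447), and with 8 it was 0.64 ± 0.22 (adjusted p = 0.197). Mrps16 missed the threshold with 6 libraries (0.66 ± 0.21, adjusted p = 0.0538) and had a log2 fold change of 0.76 ± 0.22 with 8 (adjusted p = 0.158).

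Mrps27 (chromosome 13, 99344767 to 99415562), a pentatricopeptide repeat protein of the small subunit, was the member that fell. It was at 57.5, 73.7, 49.7, 34.0 and 26.6 CPM in libraries with the knockdown label and 59.3, 85.4 and 75.6 CPM in WT. Those labelled knockdown 3 to 5 were below WT, while that labelled knockdown 2 was above WT 1. Its log2 fold change was -0.99 ± 0.26 with 6 libraries (edgeR adjusted p = 0.0311) and -0.60 ± 0.34 with 8 (adjusted p = 0.393). A transcript on the other strand, 6430562O15Rik, overlaps its exons. Mrps2 had -0.35 ± 0.37 with 8 libraries and -0.81 ± 0.26 with 6, where it lay below WT without overlap and missed the threshold in edgeR (adjusted p = 0.0577) but passed in DESeq2 (adjusted p = 0.0221). Mrps5 had -0.17 ± 0.16 and -0.12 ± 0.16 and did not pass.

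Mammals have 3 related genes descended from the bacterial protein S18, whose products occupy different places in the mitochondrial ribosome. Mrps18c was at 107, 102, 62.4, 110 and 107 CPM in libraries with the knockdown label and 55.8, 43.0 and 45.4 CPM in WT. The library labelled knockdown 3 lay close to WT 1 and the other 4 lay together well above it. The log2 fold change was 0.96 ± 0.24 with 6 libraries (edgeR adjusted p = 0.0296) and 1.02 ± 0.24 with 8 (adjusted p = 0.137).

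Mrps18a, whose product sits in the large subunit, was at 106, 104, 66.6, 59.2 and 39.3 CPM in libraries with the knockdown label and 76.9, 63.3 and 71.7 CPM in WT. Mrps18b, of the small subunit, was at 91.4, 85.0, 62.2, 38.2 and 35.0 CPM and at 49.8, 47.5 and 46.7 CPM. In both, the libraries labelled knockdown 1 and 2 were above WT and those labelled 4 and 5 below, so the groups overlapped. With 6 libraries the log2 fold changes were -0.36 ± 0.22 for Mrps18a (edgeR adjusted p = 0.265) and -0.09 ± 0.24 for Mrps18b (adjusted p = 0.816). With 8 libraries both had the other sign, 0.08 ± 0.34 and 0.38 ± 0.36 (adjusted p = 0.923 and 0.63). Differences among the 3 genes were not tested.

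Mrps36, outside the ribosome, was at 76.8, 57.5, 58.8, 56.5 and 43.0 CPM in libraries with the knockdown label and 37.9, 30.5 and 28.2 CPM in WT. The groups did not overlap. Its log2 fold change was 0.71 ± 0.20 with 6 libraries (edgeR adjusted p = 0.0406) and 0.86 ± 0.24 with 8 (adjusted p = 0.155). The annotation holds 3 pseudogenes of Mrps36, so reads shared with these copies make its level uncertain. Mrps12, a protein of the decoding centre, was at 67.2, 68.3, 51.6, 68.8 and 56.4 CPM and 48.2, 44.0 and 47.9 CPM and did not pass in either comparison (edgeR adjusted p = 0.195 with 6 libraries).

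Up to 2000 bases, shorter members had higher fold changes. The effective length was read from the ratio of each gene's count to its FPKM. With 6 libraries, the 26 shortest members (median 506 bases) had a median log2 fold change of 0.37, with 5 called higher and 0 lower (19.2% and 0%). Of all genes, 50.4% were called higher up to 500 bases, 26.8% at 500 to 750, 12.8% at 750 to 1000, 6.11% at 1000 to 2000 and 11.5% above. The shares of members in the same 5 ranges were 36.4%, 5.56%, 11.8%, 9.09% and 0%. The 26 of middle length (median 850 bases) had 0.04, with 2 higher and 0 lower, and the 26 longest (median 1751 bases) had -0.11, with 2 higher and 1 lower. The shortest of the called genes were Mrpl52 (200 bases), Mrpl33 (252 bases), Mrps21 (270 bases) and Mrps18c (288 bases).

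Across the 78 genes, Spearman's rho of length with log2 fold change was -0.40 in both comparisons. Up to 2000 bases it was -0.59 over 68 members with 6 libraries, and -0.36 over all 5000 tested genes of that length. All these genes share the same libraries, and the values are descriptions. The 11 members up to 500 bases had a median of 0.58, and all 397 genes of that length 0.97. At 1000 to 2000 bases the 22 members had -0.24 and all 3486 genes -0.20. In the shortest range the median of the members was thus below that of all genes. The 10 members over 2000 bases did not continue the trend, with a median of 0.26 (8 positive, 0 called), against 0.03 for all genes of that length.

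**Figure D4:**
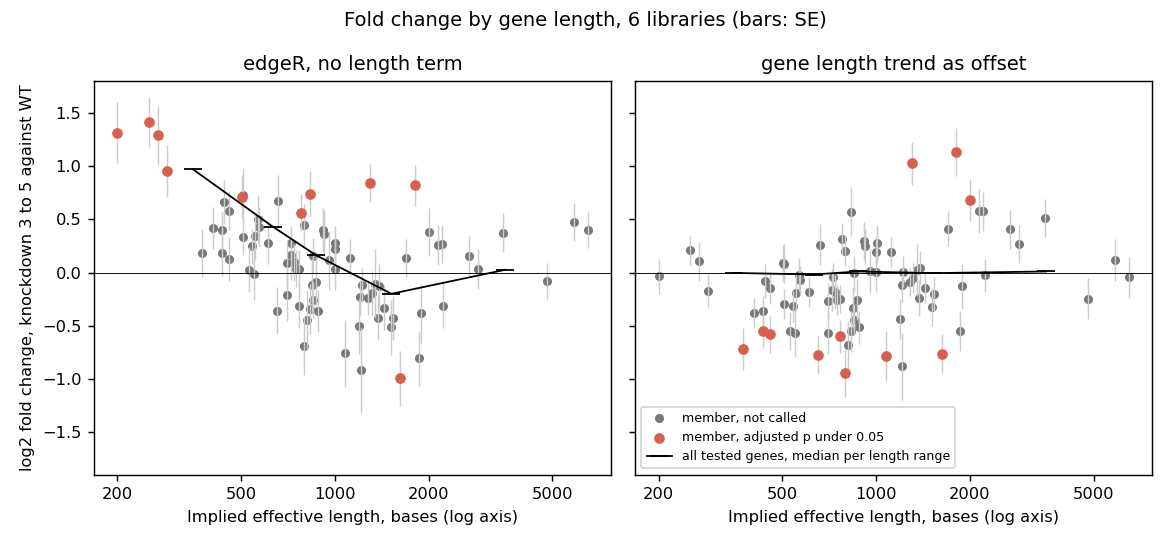
Log2 fold change (6 libraries, grey bars SE) of each of the 78 genes against effective length in bases (log axis), in edgeR without a length term (left) and with each library's length trend as an offset (right). The black line joins the medians of all tested genes in 5 ranges of length, which fall from 0.97 to -0.20 between the shortest range and 1000 to 2000 bases on the left and lie near 0 on the right.

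The median log2 CPM of the 26 shortest members, relative to each gene's mean over 8 libraries, was 0.48, 0.34, 0.12, 0.30 and -0.12 in the libraries labelled knockdown 1 to 5 and -0.13, -0.38 and -0.30 in WT. For the 26 longest it was 0.19, 0.33, 0.06, 0.02 and -0.36, and 0.02, 0.04 and -0.06. The 26 of middle length had 0.42, 0.50, 0.06, -0.06 and -0.38, and -0.11, -0.15 and -0.14. The shortest were below the longest in each WT library and above them in the libraries labelled knockdown, though hardly so in that labelled knockdown 2. The middle group did not lie between them in those labelled knockdown 2, 4 and 5. In that labelled knockdown 3 it was barely below the longest (0.0566 against 0.0598). On the TPM scale, the difference of the medians of log2(TPM + 1) between short and long members was 2.25, 2.19, 2.12, 2.53 and 2.44 in the libraries labelled knockdown and 1.93, 1.54 and 1.67 in WT. All 5 libraries labelled knockdown were above all 3 WT libraries.

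**Figure D5:**
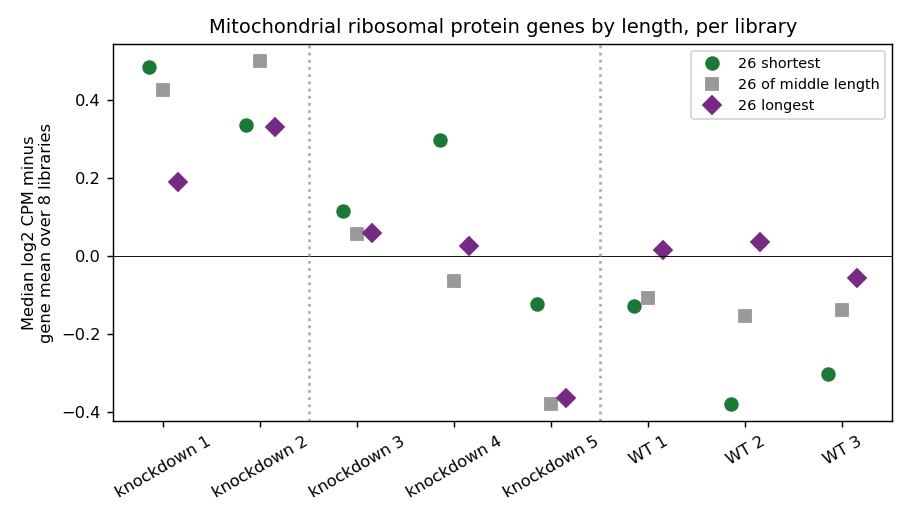
Median log2 CPM of the 26 shortest, 26 middle and 26 longest of the 78 genes in each library, relative to each gene's mean over 8 libraries. The shortest lie above the longest in all libraries labelled knockdown, hardly so in knockdown 2, and below them in all WT libraries.

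When each library's trend of log2 CPM on length was taken out as an offset, edgeR called 3 members higher (9.8% of all genes) and 8 lower (9.1%) with 6 libraries. The median log2 fold change of the members became -0.12, against 0.01 over all genes. Spearman's rho of length with log2 fold change across the 78 genes was then 0.33 (0.37 with 8 libraries), against -0.40 without the offset. Within the family a relation with length thus remained, with the other sign. The 26 shortest members had a median of -0.19 and the 10 over 2000 bases 0.34. Mrpl51 (1.03 ± 0.20, adjusted p = 0.0142), Mrps14 (1.13 ± 0.22, adjusted p = 0.0142) and Mrps27 (-0.76 ± 0.18, adjusted p = 0.0252) passed in both fits and kept their direction. Mrpl33 had 0.21 (adjusted p = 0.298), Mrps21 0.10 (adjusted p = 0.719), Mrpl52 -0.035 (adjusted p = 0.903) and Mrps18c -0.17 (adjusted p = 0.47). The sign turned in 27 of the 78 genes, in 24 from positive to negative, Mrpl23, Mrps16 and Mrps12 among them. Mrpl1 was also called higher, and Mrpl2, Mrpl4, Mrpl34, Mrpl42, Mrpl54, Mrpl58 and Mrps18a joined Mrps27 among those called lower. Mrpl58 encodes a peptidyl-tRNA hydrolase that is built into the large subunit.

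The related families moved in the same fits. Of the 80 cytosolic ribosomal protein genes tested with 6 libraries, 55 were higher and 0 lower (median 1.02), and 28 were higher and 0 lower with the length offset (median 0.44). Of 81 respiratory chain genes, 46 were higher and 1 lower (median 0.76), and 14 and 4 with the offset (median near 0). Their median lengths, 499 and 479 bases, were below the 850 bases of the mitochondrial ribosomal protein genes.

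Genes that work with the mitochondrial ribosome were read from fixed lists, with edgeR and 6 libraries. Of 5 ribosomal proteins with other names, Chchd1 was higher (1.11 ± 0.24, adjusted p = 0.0196) and the other 4 did not pass. Of 24 assembly factors, Malsu1, which binds the large subunit during assembly, was higher (0.94 ± 0.22). Mtg2, a GTPase of large subunit assembly (-1.45 ± 0.29), and Eral1, a chaperone of the small subunit RNA (-0.80 ± 0.23), were lower.

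Of 16 translation factors only Gfm1, an elongation factor, passed and was lower (-0.81 ± 0.23). Of 17 mitochondrial tRNA synthetases, 0 were higher and Tars2, Aars2 and Nars2 were lower (-0.88, -1.07 and -0.90). Of 17 genes for mitochondrial DNA, transcription and RNA processing, Slirp was higher and Elac2 and Polrmt, the mitochondrial RNA polymerase, were lower. Median log2 fold changes were -0.39 for assembly factors, -0.27 for translation factors and -0.54 for tRNA synthetases, beside 0.14 for the ribosomal proteins. With 8 libraries they were -0.09, -0.13 and -0.12, beside 0.26, and edgeR called 0 genes of these lists. Median lengths were 1619, 2049 and 2522 bases, and with the length offset the medians were -0.24, -0.16 and -0.31, beside -0.12.

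Among 10 regulators, Yy1 was higher and Mycn and Nrf1 were lower. Yy1 was at 109, 109.7, 83.1, 115 and 112 CPM in libraries with the knockdown label and 66.6, 54.6 and 63.5 CPM in WT (log2 fold change 0.75 ± 0.19 with 6 libraries, edgeR adjusted p = 0.0285). The 12 members with the YY1 letters had a median log2 fold change of -0.08 with 6 libraries and 0.25 with 8. The 57 without them had 0.17 and 0.34. Nrf1 fell by 0.73 on the log2 scale with 6 libraries (edgeR adjusted p = 0.0295). The 8 members with the NRF1 letters had medians of 0.19 and 0.36, the 61 without them 0.14 and 0.33. With 8 libraries neither Yy1 (0.78 ± 0.19, edgeR adjusted p = 0.137) nor Nrf1 (-0.41 ± 0.27, adjusted p = 0.458) passed. Whether either regulator acts on the members was not tested. Hspe1, the mitochondrial co-chaperonin, was the only one of 10 proteostasis genes to pass, and it was higher (1.27 ± 0.23).

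Many of the genes share a promoter region with a neighbour. In the GENCODE M21 annotation, 18 of the 78 (23.1%) have the start of a coding gene on the other strand within 1000 bases, pointing away. This holds for 6.79% of 21951 coding genes, expressed here or not. Of the 10 genes called with 6 libraries, Mrpl51 (100 bases from Ncapd2), Mrps18c (29 bases from Helq) and Mrps27 (81 bases from Ptcd2) are of this kind. Ncapd2 (0.01 ± 0.16), Helq (0.03 ± 0.26) and Ptcd2 (-0.46 ± 0.26) did not pass.

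In other pairs the neighbour was the gene that passed. Fau, which encodes a cytosolic ribosomal protein and starts 59 bases from Mrpl49, had a log2 fold change of 1.24 ± 0.27 (edgeR adjusted p = 0.0204), while Mrpl49 was at 46.8, 49.3, 60.3, 37.4 and 29.6 CPM in libraries with the knockdown label and 62.8, 58.5 and 60.8 CPM in WT. Apba3, 26 bases from Mrpl54, was lower (-1.13 ± 0.28, adjusted p = 0.0277). In none of the 18 pairs did both genes pass. With 11.1% of all genes called higher and 9.37% lower, few such pairs would be found by these shares alone. Whether the genes of a pair change together was not tested. Exons of 28 of the 78 genes are overlapped by an exon on the other strand, which limits how far their counts can be assigned.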

How the data were processed

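RNA from 8 libraries of sorted cells was read from 1 deposited table. The submitters' processing notes name HISAT and Bowtie2 and the build GRCm38.p6. The counting tool, versions and annotation are not given in the sources used here. Per the file headers, the authors deposited expected counts for each gene, which carry no normalisation. Deposited TPM and FPKM take gene length and depth into account, per the file headers. The 8 columns of group means and the normalised counts were not used, and 0 columns belonged to libraries outside the series. Reads were not marked by strand or molecular identifier, per the labels' protocols, so amplified copies count as reads and floors cover counting error only.

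Expected counts were rounded, filtered with filterByExpr, scaled by TMM and compared by robust quasi-likelihood testing in edgeR 4.0.16 in R 4.3.3, two-sided, with Benjamini-Hochberg adjustment over all genes and a threshold of 0.05. CPM values use the scaling of 8 libraries. For single genes, CPM values were put to an exact permutation test, two-sided, over 56 or 20 splits. Alternatives were DESeq2 1.42.0, limma 3.58.1 (voom, and log2(FPKM + 1) or log2(FPKM + 0.1)), other scalings and filters, a length offset (lowess span 0.3 of log2 CPM, prior count 2), each library left out and a replicate block. The fits were tested on simulated data. Python 3.11.15 (numpy 2.4.6, pandas 2.3.3, scipy 1.17.1) made the tables, and matplotlib 3.10.9 the figures.

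Coordinates and promoters are from RefSeq (GRCm38.p6), and neighbours from GENCODE M21. Named genes were members past the threshold with 6 libraries, the 8 in each direction with the smallest p with 8 libraries, the 5 highest, lowest, steadiest and most variable, Mrps18a, Mrps18b, Mrps18c, Mrps36, Mrpl12 and Mrps12, and up to 3 per list of other genes. Members with the length offset, divergent pairs and members shown beside them were named after their values were seen. The members, the lists and the set of 6 libraries were chosen with earlier results of these data known.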

Additional observations from a re-analysis of the deposited data

Results flagged for a closer look

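Of 35 measures checked for a library apart within the 5 libraries labelled knockdown, Mrps18c stood out. It was at 62.4 CPM in the library labelled knockdown 3, against 102 to 110 CPM in the other 4, a gap of 0.842 of the whole range where 0.71 is the critical value of Dixon's test. Chance alone passes this critical value in about 1 of 20 groups, and 35 measures were checked.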

How the results depend on the processing

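With 8 libraries, DESeq2 called 15 members higher (10.5% of all genes) and voom 19 higher (12.6%) and 4 lower (11.6%), against 0 in edgeR (0%). Their median log2 fold change of 0.26 became 0.045 with the length offset, 0.024 without a composition factor (which moved the median of all genes to -0.17), and -0.045 and -0.046 in limma on log2(FPKM + 1) and on log2(FPKM + 0.1). Leaving out 1 library gave 0 calls and medians of 0.25 to 0.41. With 6 libraries, members higher were 3 with the length offset (9.8% of all genes) and 24 with voom (23.3%). Members lower were 2 with DESeq2 (13.9% of all genes), 8 with voom (22.2%) and 8 with the length offset (9.1%). They were also 2 without a composition factor and with both FPKM fits. For these fits no share of all genes is given, so that count cannot be set against all genes. Leaving out 1 library gave 0 to 13 higher, 0 to 11 lower and medians of 0.05 to 0.23, and the length offset gave a median of -0.12. With the length offset the direction turned in 27 of 78 members with 6 libraries and 26 with 8. Among named folds these were, with 6 libraries, Mrpl23 (-0.14), Mrpl52 (-0.035), Mrps12 (-0.30), Mrps16 (-0.077), Mrps18c (-0.17) and Mrps5 (0.0098), and, with 8, Mrpl52 (-0.16), Mrps12 (-0.15) and Mrps18a (-0.32). With 8 libraries Mrps18a also turned without a composition factor (-0.23), with voom (-0.25), in limma on log2(FPKM + 1) (-0.30) and log2(FPKM + 0.1) (-0.30) and without the library labelled knockdown 1 (-0.071) or 2 (-0.059), and Mrps18b with voom (-0.078). With 6 libraries it turned for Mrps18b without the library labelled knockdown 4 (0.022) or 5 (0.071), its range being -0.41 to 0.071 with 1 library left out. Apart from the fewer libraries in the fits that leave one out, the cause was not tested.

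Same-numbered libraries did not deviate together (correlations of -0.025, 0.037 and -0.045), so these values gave no sign that the numbers pair the libraries. They cannot exclude pairing, because the libraries labelled knockdown differed widely in cell type markers, which could hide a shared deviation. The labels gave no litter or animal for a library. With a replicate block over 8 libraries, edgeR called 0 members, the median was 0.39 and the direction of Mrpl44 turned (0.029). With 6 libraries no such fit was possible, because the groups share 1 number only.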
